A study of Mus musculus with 21 samples.

Results

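Signal was described for 10 chemokine ligand genes, Ccl3, Ccl4, Ccl5, Ccl6, Ccl9, Ccl17, Ccl24, Xcl1, Cxcl10 and Pf4, out of 20018 genes with a named probe on single-colour Agilent mouse arrays. A probe was assigned to a gene through its RefSeq accession, and the probe with the highest mean level over all 21 arrays was chosen by rule to stand for the gene. Each of the 10 genes had only 1 probe, printed as 1 spot, so no second probe could serve as a check. The genes themselves were selected on earlier results of these same arrays, with their levels and their differences between the groups in view. Their levels and the counts over them are therefore descriptions, and each p-value belongs to a fit over all genes and is not evidence that the set as a whole stands apart.

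Chemokines are small secreted proteins that bind G-protein-coupled receptors and steer the migration of leukocytes. They are named by the spacing of their first cysteines. Ccl3, Ccl4 and Ccl5 are inflammatory ligands made by activated myeloid cells, lymphocytes and, after antigen-receptor engagement, B cells. Ccl6 and Ccl9 are rodent myeloid ligands that signal through Ccr1, Ccl17 is a ligand of Ccr4 made mainly by dendritic cells, and Ccl24 (eotaxin-2) attracts eosinophils through Ccr3. Xcl1 (lymphotactin) is released by activated NK and CD8+ T cells and binds Xcr1 on cross-presenting dendritic cells, Cxcl10 is an interferon-inducible ligand of Cxcr3, and Pf4 (Cxcl4) is the platelet factor stored in the granules of megakaryocytes and platelets. Bach1 and Bach2 are basic leucine zipper repressors that pair with small Maf proteins and bind Maf recognition elements, which contain an AP-1 site.

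In the RefSeq annotation Ccl5, Ccl9, Ccl6, Ccl3 and Ccl4 follow one another on chromosome 11 with 0 protein-coding genes between neighbours, and the annotated intervals of Ccl3 and Ccl4 overlap. Pf4, Cxcl10 and Ccl24 lie on chromosome 5, with 22 protein-coding genes between Pf4 and Cxcl10, Ccl17 lies on chromosome 8 and Xcl1 on chromosome 1. Promoter windows were at hand for Xcl1, Pf4, Cxcl10, Ccl17, Ccl9, Ccl6 and Ccl3, 7 of the 10 genes, and not for Ccl4, Ccl5 and Ccl24. Each runs 5′ to 3′ over 300 bases, from 250 before to 50 after an annotated start. The window of Ccl17, at chr8:94810203-94810502 on the plus strand, lies inside the annotated gene interval, which begins at 94809380. Its start is therefore not the start of that interval. Both strands were searched for TGANTCA (AP-1), for TGC followed directly by those letters (a Maf recognition element, whose matches hold an AP-1 match), for GGG and CC with any 5 bases between them (NF-kB), for a pair of TTTC with any 2 bases between them (interferon-stimulated element core) and for TTGCNNAA (a C/EBP-like element). The windows of Cxcl10 and Ccl9 are shown because theirs were the 2 of 7 windows with an AP-1 match. Both genes changed in the follicular B cells and in the MPP-derived cells described below, but so did Pf4, Xcl1 and Ccl17, whose windows held no AP-1 match. The windows shown come from RefSeq, build GRCm38.p6, both on the minus strand, at chr5:92348840-92349139 for Cxcl10 and chr11:83578587-83578886 for Ccl9, with every match in capitals.
Cxcl10: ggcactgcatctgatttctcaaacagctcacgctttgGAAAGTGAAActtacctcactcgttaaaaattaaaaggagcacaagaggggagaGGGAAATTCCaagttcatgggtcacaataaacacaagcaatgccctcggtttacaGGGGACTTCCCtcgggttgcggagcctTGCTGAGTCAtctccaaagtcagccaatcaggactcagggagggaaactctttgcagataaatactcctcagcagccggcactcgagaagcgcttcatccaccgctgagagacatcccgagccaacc
Ccl9: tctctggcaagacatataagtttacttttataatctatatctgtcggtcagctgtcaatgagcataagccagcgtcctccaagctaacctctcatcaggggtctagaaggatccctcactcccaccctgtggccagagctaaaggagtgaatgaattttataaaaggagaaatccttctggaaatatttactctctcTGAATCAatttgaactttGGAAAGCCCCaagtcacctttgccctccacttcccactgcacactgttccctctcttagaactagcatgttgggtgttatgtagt
In the Cxcl10 window the capitals mark, in order, the interferon-type match GAAAGTGAAA on the reverse strand at -213 from the start, the NF-kB match GGGAAATTCC at -159, a pair of overlapping NF-kB matches at -104 and -103, and TGCTGAGTCA at -77, which holds the AP-1 match. In the Ccl9 window they mark the AP-1 match TGAATCA at -53 and GGAAAGCCCC, an NF-kB match on the reverse strand, at -35. Of the 32851 promoter windows in the same table, 7.81% held the AP-1 letters, 0.423% the longer Maf element, 50.8% the NF-kB letters, 3.44% the interferon core and 10.8% the C/EBP-like letters. The NF-kB letters were found in 2 of the 7 windows and the C/EBP-like letters in 1, as TTGCTAAA in that of Pf4. The other 4 windows, those of Xcl1, Ccl17, Ccl6 and Ccl3, held none of the 5 sets of letters. A match describes the letters only and was not tested as a binding site.

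The 21 arrays fell into 7 groups of 3 in 3 experiments. Common lymphoid progenitors (CLPs), marrow cells with the potential for the lymphoid lineages, were taken from wild-type (WT) and from compound Bach1/Bach2-deficient (DD) mice. They were pooled over animals, partly depleted of lineage-positive cells on beads and then sorted. Multipotent progenitors (MPPs) of WT mice, pooled from 4 animals per experiment, were kept overnight with the cytokines SCF (50 ng/ml), IL-3 (5 ng/ml) and IL-6 (10 ng/ml), then infected with an MSCV retrovirus carrying GFP alone (control vector) or Bach2 with GFP (Bach2 vector), and sorted for GFP after 2 days in multilineage medium. A further Bach2-vector group had 24 h in that medium and 6 days under B-lineage conditions before GFP+ B220+ cells were sorted, so it differed from both MPP groups in culture time, medium and sort as well as in B220, and it had no control-vector counterpart. Follicular B cells came from WT mice and from mice lacking Bach2 (Bach2KO), and both were stimulated through the B-cell receptor for 24 h with an anti-IgM fragment at 10 ug/ml. No unstimulated follicular B cells were among the arrays, and all MPP-derived groups had been cultured with cytokines. The labels name no separate animals for the follicular B-cell arrays and speak of 1 RNA sample, so p-values may partly measure technical spread.

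A level below is the log2 of a probe's signal minus that of the 75th percentile of its array, and a difference is one of mean levels ± SE from limma over 3 arrays per group. To pass, a gene needed an adjusted p below 0.05 among all genes tested in its comparison. The follicular B-cell arrays were dimmer than the others, with 50.9% to 58.8% of spots well above background against 62.6% to 81.5%, and a 75th percentile of 97.3 to 357.5 against 2071 to 5127. The targeted gene Bach2 fell by 3.76 ± 0.36 in Bach2KO follicular B cells (adjusted p = 0.000918). It was at -2.11 ± 0.58 in DD against WT CLPs (adjusted p = 0.999), with all DD arrays below all WT arrays. With the Bach2 vector it was at 1.15 ± 0.60 (adjusted p = 0.775), or 2.95 on slide 1 and 0.25 on slide 2, and in B220+ cells at -0.12 ± 0.60 against the control vector (adjusted p = 0.909), so this probe did not separate the Bach2-vector arrays from the control-vector arrays. Bach1 did not pass in any comparison, with 95% intervals of the difference of -1.56 to 0.51 for DD against WT CLPs, -2.25 to 0.26 for the Bach2 against the control vector and -0.16 to 1.22 for Bach2KO against WT follicular B cells. Where these probes lie relative to the deletions and the vector insert is not given in the sources used here.

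In stimulated follicular B cells, Bach2KO arrays carried more signal of Ccl3, Ccl4, Ccl5, Ccl9, Xcl1, Cxcl10 and Pf4 and less of Ccl17 than WT arrays. Among genes above background in both genotypes the rises ran from 4.44-fold for Ccl4 to 10.3-fold for Ccl5, and against WT signal at background Ccl9 rose at least 13.3-fold, Cxcl10 at least 6.59-fold and Pf4 at least 4.12-fold. Of the 8 members tested 7 rose and 1 fell, where 2.72% of all 13073 genes passed, 2.21% rising and 0.513% falling. All 8 had groups that did not overlap, as 18.7% of all genes did. Their median difference was 3.22, or 2.50 with those 3 genes at their bound, beside -0.16 over all genes tested. Of these 8, Ccl9, Cxcl10 and Pf4 were above background on 0 of 3 WT arrays and on 3 of 3 Bach2KO arrays, so they entered the test only through the group in which they were high and had to differ; Ccl17 entered through 3 WT arrays and 1 Bach2KO array. Ccl3, Ccl4, Ccl5 and Xcl1 were above background on all 6 arrays.

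Among these inflammatory ligands, Ccl5 stood at 0.30, -0.05 and 0.16 on the WT arrays and at 3.02, 3.87 and 3.61 on the Bach2KO arrays. It rose by 3.36 ± 0.33, or 10.3-fold (adjusted p = 0.000918), and the lowest Bach2KO array lay above the highest WT array. Ccl3 stood at 2.27, 3.18 and 2.29 in WT and at 5.80, 4.93 and 6.27 in Bach2KO cells, a rise of 3.09 ± 0.43 or 8.50-fold (adjusted p = 0.00597). The groups did not overlap for Ccl3 either. Ccl4, at 5.62, 5.95 and 5.11 in WT, was at 8.15, 7.03 and 7.95 in Bach2KO cells. Its rise of 2.15 ± 0.39, or 4.44-fold, passed (adjusted p = 0.0229). The call was lost in 6 of 17 alternative settings (adjusted p up to 0.257). Among them were quantile normalization, array median centring, normexp background correction and the fits without WT or Bach2KO replicate 3.

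Ccl9 and Ccl6, the myeloid ligands, were at background in WT cells. Ccl9 read -6.01, -5.08 and -4.98 in WT, none of them well above background, and -0.34, -2.09 and -0.31 in Bach2KO cells. The rise was at least 13.3-fold (adjusted p = 0.00265). Among the alternative settings the difference of Ccl9 was as small as 1.60 on the log2 scale, below that bound. Its adjusted p was at most 0.0462 there. Ccl6 was not tested, being above background on 2 of 3 Bach2KO arrays and 0 of 3 WT arrays; it read -5.95, -5.85 and -6.11 in WT and -3.84, -3.89 and -2.33 in Bach2KO cells, at least 2.46-fold higher. Both genes read higher on every Bach2KO array than on any WT array, but the Ccl6 value of -3.89 was itself not above background. Their known receptor Ccr1 was at 1.10 ± 1.36 (adjusted p = 0.788), above background on 2 Bach2KO arrays and 1 WT array. The eosinophil attractant Ccl24 was at background on all 6 arrays. It too read higher in Bach2KO cells (-5.10 to -4.41) than in WT cells (-6.17 to -5.39), so a lack of overlap at background does not by itself show a rise. The receptor of Ccl24, Ccr3, was at 0.47 ± 0.39 (adjusted p = 0.708).

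The interferon-inducible Cxcl10 was at background in WT cells, at -6.68, -6.42 and -4.65, and read -2.49, -2.31 and -0.98 in Bach2KO cells, at least 6.59-fold higher (adjusted p = 0.00868). Its receptor Cxcr3 was at 0.56 ± 0.36 (adjusted p = 0.659). Pf4 went from background values of -5.30, -6.47 and -6.76 to -3.50, -2.70 and -1.62, at least 4.12-fold higher (adjusted p = 0.00917). Neither gene's groups overlapped, but both differences shrank under normexp background correction, to 0.89 for Cxcl10 (adjusted p = 0.543) and 0.73 for Pf4 (adjusted p = 0.773). The call of Pf4 was also lost with quantile normalization. Xcl1 read -0.69, -1.13 and -1.46 in WT and 1.99, 0.24 and 1.35 in Bach2KO cells, a rise of 2.28 ± 0.47 or 4.87-fold (adjusted p = 0.0374). The call of Xcl1 was lost in 7 of 17 settings (adjusted p up to 0.30). Among them were quantile normalization, array median centring, normexp background correction and the fits without WT replicate 2 or 3 or Bach2KO replicate 3. Its receptor Xcr1 was at background on all arrays of both groups.

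Ccl17 went the other way. It read -1.92, -3.39 and -2.87 in WT and -4.79, -4.66 and -4.68 in Bach2KO cells, where 1 of the 3 arrays was above background. The fall of 3.96-fold rests mostly on Bach2KO signal near background (adjusted p = 0.0365), and its call was lost in 9 of 16 settings (adjusted p up to 0.901). Among them were quantile normalization, array median centring and normexp background correction, and the fits without WT replicate 1 or 3 or Bach2KO replicate 2 or 3. The receptor of Ccl17, Ccr4, was at background on all 6 arrays and was not tested.

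Both slides of the follicular B-cell experiment held both genotypes, replicate 1 on slide 1 and replicates 2 and 3 on slide 2, and each of the 8 tested members had the same sign on both slides. The differences on slides 1 and 2 were 3.54 and 2.86 for Ccl3 and 2.72 and 3.68 for Ccl5. Those of Ccl9, Cxcl10 and Pf4 were taken against WT signal at background on both slides, so no size is given for them by slide. With the replicate number as a block all 8 were called, as in the unblocked fit, while the number of all genes called went from 356 to 2980. Without WT replicate 3, or without Bach2KO replicate 3, 5 of the 8 were called.

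Summed marker levels of several cell types differed between the genotypes as well. The 5 named of 6 neutrophil markers summed to 0.49 to 3.96 in WT and 3.31 to 5.51 in Bach2KO cells on the log2 scale, with 3 to 4 and 4 to 5 of them above background and Mpo at background in WT. The 5 monocyte and macrophage markers summed to 3.58 to 4.86, with 4 to 5 of them above background, and to 3.60 to 5.74, with all 5 above it, and the 6 NK markers to 3.00 to 3.26 and 3.09 to 3.74, with Ncr1, Klrd1 and Gzmb at background in both. Of 6 megakaryocyte and platelet markers, Itga2b, Gp9 and Gp5 were at background in both, and the sums were -2.00 to -0.84 and -1.98 to -0.28. T-cell markers summed to 6.42 to 7.09 and 6.23 to 6.56. Mature B-cell markers, all 6 above background on every array, summed to 7.24 to 8.12 in WT and 6.22 to 7.07 in Bach2KO cells, and the 7 early B-cell markers, with Igll1 at background, to 8.20 to 9.02 and 7.39 to 8.02. Basophil, eosinophil and mast cell markers, of which Mcpt8, Epx, Fcer1a, Cpa3 and Ms4a2 were at background in both genotypes, summed to -3.73 to -3.21 and -2.26 to -1.75. The 5 multipotent progenitor markers summed to 2.56 to 2.92 in WT and 5.43 to 5.72 in Bach2KO cells, with Cd34 at background in both and Kit in Bach2KO cells, and the 5 lymphoid progenitor markers to 0.74 to 0.99 and 0.44 to 0.59, with Rag1 at background in both. Dendritic-cell markers, with Cd209a and Xcr1 at background in both genotypes, summed to 6.75 to 8.23 and 6.90 to 8.56. The sums of mature and early B cells, of both progenitor lists and of basophils, eosinophils and mast cells did not overlap between the genotypes, and the others did. Each sum adds linear signals, so a bright gene can set it. Of the multipotent progenitor markers, 3 to 4 were above background in WT and 2 to 3 in Bach2KO cells, where the sum was higher. The part of other cells in the chemokine differences was not tested, and in bulk RNA fewer cells of a type and less RNA per cell cannot be told apart.

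Beyond the 10 genes, 10 other chemokine ligands were tested in follicular B cells, of which 1 rose and 1 fell. Ccl1, a T-cell-derived ligand of Ccr8, rose from a mean of -2.22 to 2.95, by 5.17 ± 0.51 or 36.0-fold (adjusted p = 0.000948), and Cx3cl1 fell 4.00-fold (adjusted p = 0.0394). Of 14 other receptors 1 rose and 2 fell. Ccr9, the gut-homing receptor, rose by 3.88 ± 0.34, or 14.7-fold (adjusted p = 0.000755). Ccr7, which guides lymphocytes into lymphoid tissue, fell 3.12-fold (adjusted p = 0.0482), and the scavenging receptor Ackr3 fell at least 3.11-fold (adjusted p = 0.00597), having entered the test through the 3 WT arrays alone.

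**Figure D1:**
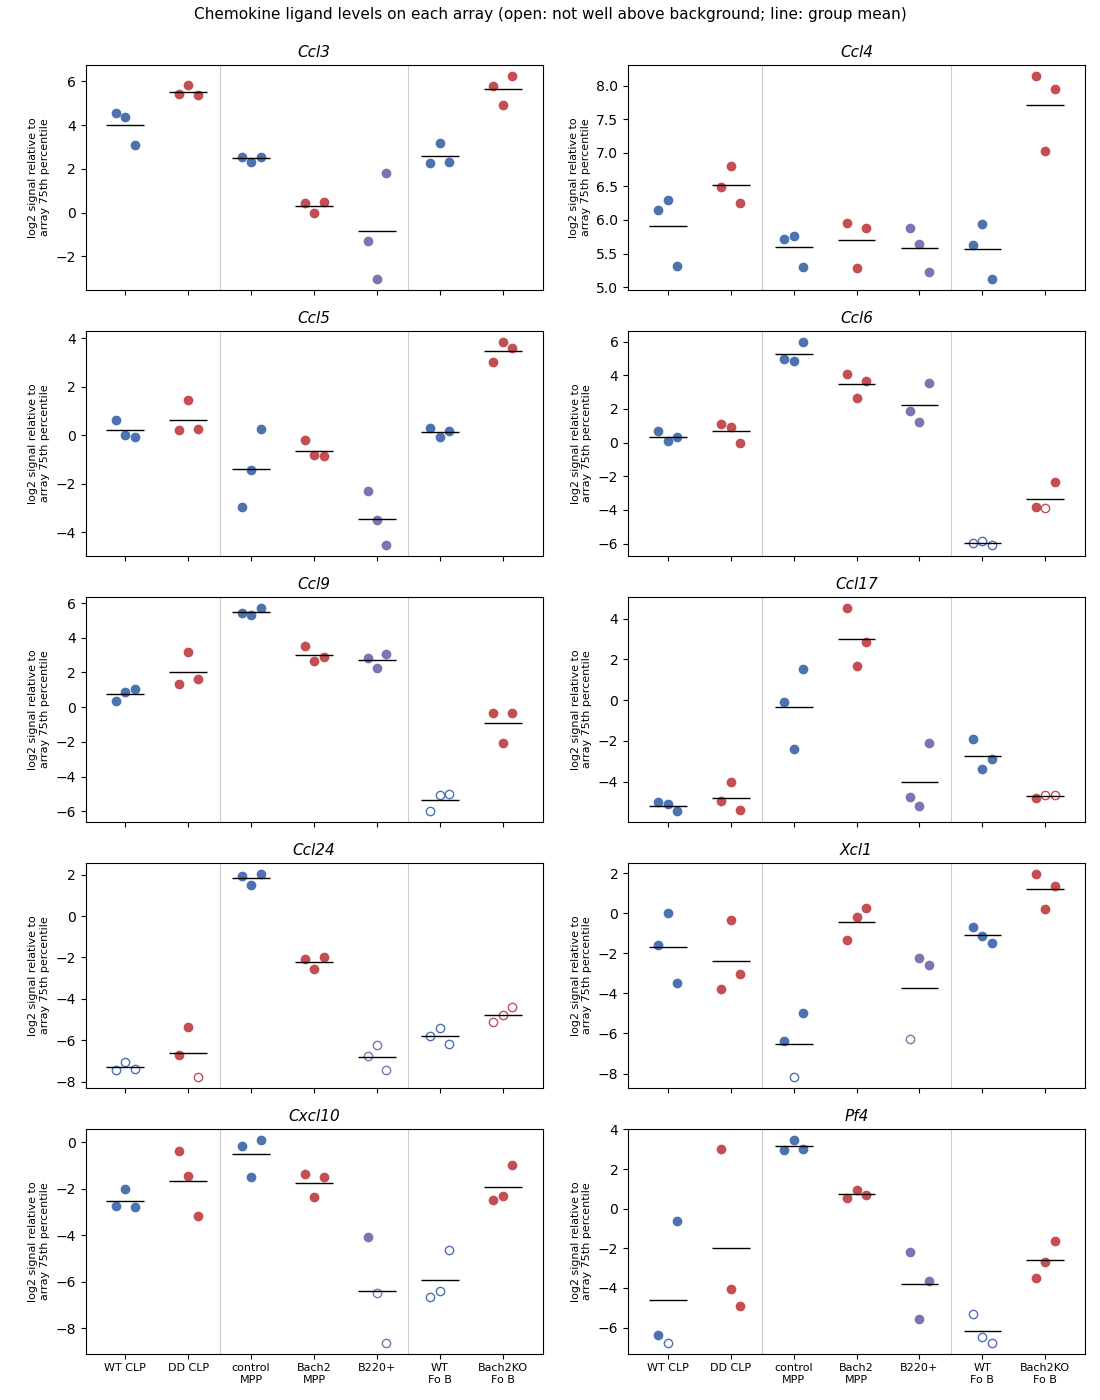
Level of each of the 10 chemokine ligand genes on each of 21 arrays, in log2 units from that array's 75th percentile (vertical axis, a separate scale for each gene), by group (horizontal axis). Each point is 1 array, open where the probe was not well above background, and lines are group means of 3 arrays; grey lines part the 3 experiments. Ccl3, Ccl4 and Ccl5 are higher on every Bach2KO than on any WT follicular B-cell (Fo B) array, and Ccl24 is high on the control-vector MPP arrays alone, at 1.48 to 2.05.

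In MPPs, the Bach2 vector went with less signal of the myeloid ligands Ccl24 and Ccl9 and more of Xcl1 than the control vector after 2 days. Ccl24 fell 16.2-fold and Ccl9 5.51-fold. Xcl1 rose by 6.09 on the log2 scale, or 68.3-fold, a size that rests partly on 1 control-vector array at background and was 5.25 without that array, where the call was lost. All 10 members were tested, of which 1 rose, 2 fell and 7 did not pass, where 1.8% of 16991 genes passed, 1.07% rising and 0.724% falling. Their median difference was -1.52, beside -0.02 over all genes. With only these 2 groups in the fit 5 members were called, Ccl3 (adjusted p = 0.0106) and Pf4 (adjusted p = 0.00851) in addition.

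Ccl24 read 1.91, 1.48 and 2.05 with the control vector and -2.08, -2.57 and -1.98 with the Bach2 vector, a fall of 4.02 ± 0.34 (adjusted p = 0.00113). The 2 slides gave -3.99 and -4.04, and the call was kept in all 17 alternative settings that tested it. Ccl9 read 5.41, 5.29 and 5.74 against 3.53, 2.65 and 2.87, a fall of 2.46 ± 0.32 (adjusted p = 0.00687) that was kept in all 18 settings. The groups were apart for both genes. Ccl6, its neighbour on chromosome 11, read 4.94, 4.87 and 6.01 against 4.06, 2.68 and 3.66, also with no overlap, but at -1.81 ± 0.61 it did not pass (adjusted p = 0.299). The receptors Ccr1, at 0.01 ± 0.48, and Ccr3, at 0.26 ± 0.54, did not pass.

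Xcl1 read -6.38, -8.20 and -4.98 with the control vector, the second of them not above background, and -1.35, -0.20 and 0.28 with the Bach2 vector. It rose by 6.09 ± 1.13 (95% interval 3.55 to 8.64, adjusted p = 0.0318). The call was lost without control-vector replicate 1 (adjusted p = 0.108), without control-vector replicate 2 (0.126) and without any one of the Bach2-vector replicates (0.064 to 0.147), and with slide as a block it had an adjusted p of 0.0501. The difference kept its sign in these fits, and the slides gave 5.03 and 6.62. The 6 NK markers summed to 4.27 to 5.26 with the control vector and 5.61 to 5.91 with the Bach2 vector, with no overlap, 5 of 6 being above background on each array and Ncr1 on none. The 6 T-cell markers, with Cd3g at background, summed to 1.94 to 2.21 and 2.49 to 2.81 and the 5 lymphoid progenitor markers to 3.89 to 4.54 and 4.73 to 5.29, also with no overlap. Their part in the difference was not tested.

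Several members lay apart between the vectors without passing. Pf4 read 2.96, 3.49 and 3.02 with the control vector and 0.54, 0.96 and 0.71 with the Bach2 vector (-2.42 ± 0.69, adjusted p = 0.180). Ccl3 read 2.56, 2.31 and 2.57 against 0.43, -0.03 and 0.49 (-2.18 ± 0.97, adjusted p = 0.585). Their replicates lay close together within each vector, and the spread in these tests is the one shared with the B220+ arrays, where both genes varied more (SD 1.70 for Pf4 and 2.47 for Ccl3). Ccl17 read -0.09, -2.41 and 1.53 against 4.55, 1.66 and 2.87 (3.35 ± 1.15, adjusted p = 0.315). In all, 7 of the 10 did not overlap between the vectors, where 14.9% of all genes tested did not.

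The remaining members overlapped between the vectors. Cxcl10 was at -1.24 ± 0.98 (95% interval -3.46 to 0.99) and Ccl5 at 0.75 ± 0.80 (-1.04 to 2.55). Ccl4, at a mean of 5.59 with the control and 5.70 with the Bach2 vector, was at 0.11 ± 0.29, and its interval of -0.54 to 0.77 leaves out a 2-fold change. Of the receptors, Ccr4 was at 0.50 ± 0.46 and Cxcr3 at -0.11 ± 0.43, neither of which passed, and Xcr1 was at background.

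Of 18 other ligands tested between the vectors 0 rose and 2 fell. Ppbp, the platelet basic protein whose gene belongs to the same CXC cluster as Pf4, fell at least 16.5-fold (adjusted p = 0.00113), but it was above background with the control vector alone, so it entered the test through that group and had to differ. Cxcl3, a neutrophil attractant, fell 35.5-fold (adjusted p = 0.0177). Only 1 of 3 Bach2-vector arrays was above background, so that size rests mostly on signal near background. Of 16 other receptors 2 rose and 0 fell, Ccr7 12-fold (adjusted p = 0.00353) and Ccr6, a receptor of B cells and dendritic cells, 14.9-fold (adjusted p = 0.0119). Marker sums overlapped between the vectors for monocytes and macrophages (4.54 to 5.20 with the control and 4.10 to 4.75 with the Bach2 vector), for megakaryocytes and platelets (-2.16 to -0.72 and -1.55 to -0.92, with Gp6 at background) and for dendritic cells (5.02 to 6.16 and 5.44 to 6.30, with Xcr1 at background). Those of basophils, eosinophils and mast cells were 2.72 to 4.20 and 4.18 to 5.54. Their part in the chemokine differences was not tested.

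**Figure D2:**
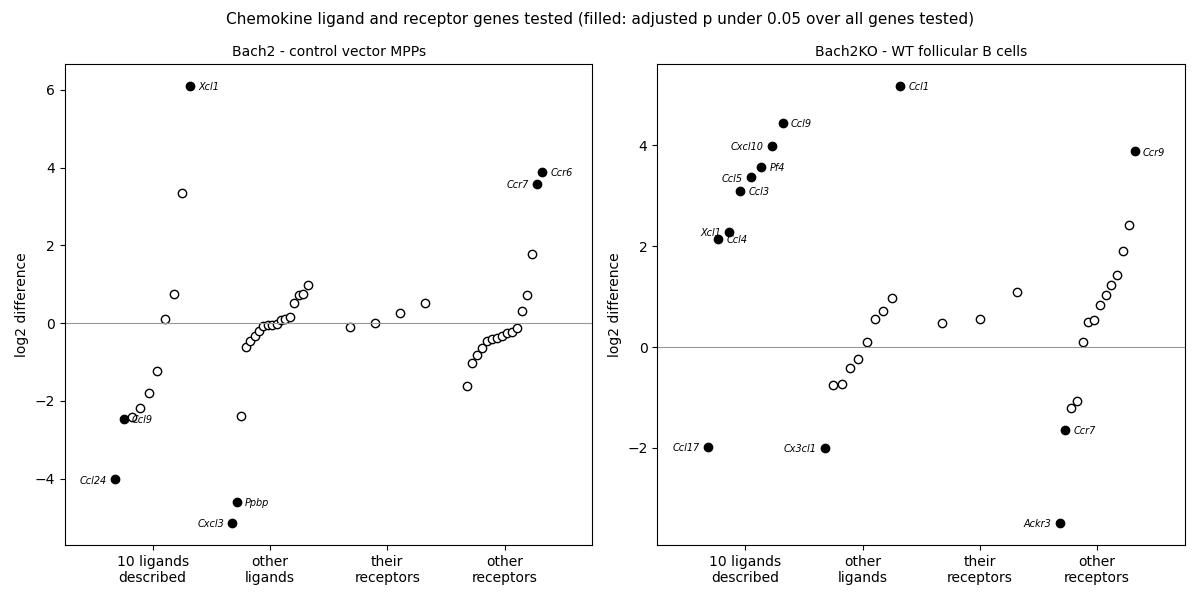
Log2 differences (vertical axis) of the chemokine ligand and receptor genes that were tested, for Bach2-vector minus control-vector MPPs on the left and Bach2KO minus WT follicular B cells on the right, with genes ordered by difference within each list (horizontal axis). Each point is 1 gene, filled and named where its adjusted p over all genes was under 0.05. On the left Xcl1 is the filled ligand above 0 and Ccl24, Ccl9, Ppbp and Cxcl3 are filled below 0; on the right Ccl17 and Cx3cl1 are the filled ligands below 0.

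B220+ cells that had carried the Bach2 vector through B-lineage culture held less signal of several members than either MPP group. Against control-vector MPPs, Ccl24 fell at least 322-fold, Pf4 124-fold, Cxcl10 59.3-fold, Ccl6 8.32-fold and Ccl9 6.80-fold. Of 10 members tested 5 fell, 0 rose and 5 did not pass, where 12.1% of all genes passed, 7.45% falling and 4.65% rising. The median difference of the 10 was -3.19 beside -0.29 over all genes, and 6 of them did not overlap, as 34.5% of all genes did not. Against Bach2-vector MPPs, Ccl17 fell 133-fold, Cxcl10 25.2-fold, Pf4 23.3-fold and Ccl24 at least 19.8-fold. There 4 fell, 0 rose and 6 did not pass, where 6.17% of genes passed, 4.16% falling and 2.01% rising. The median was -3.04 beside -0.25, and 6 of 10 members against 29.2% of genes did not overlap. These comparisons share the B220+ arrays with each other and the MPP arrays with the vector comparison, so they are not separate evidence.

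Ccl24 was at background on all 3 B220+ arrays, at -6.77, -6.21 and -7.41 (adjusted p = 9.85e-06 against the control and 0.000364 against the Bach2 vector). It entered these tests through the MPP arrays alone, so it had to differ. Among the alternative settings its log2 difference was as small as -6.24 against the control and -2.42 against the Bach2 vector, short of the bounds above. Ccl24 stood at a mean of 1.81 ± 0.30 (SD) with the control vector, -2.21 ± 0.32 with the Bach2 vector and -6.79 ± 0.60 in B220+ cells. Pf4 read -2.20, -5.58 and -3.63 in B220+ cells, below all 6 MPP arrays (adjusted p = 0.000499 and 0.00652). Ccl17 read -4.77, -5.18 and -2.12, below all Bach2-vector arrays (adjusted p = 0.00892) but overlapping the control-vector arrays (-3.70 ± 1.15, adjusted p = 0.0686). Its level was thus highest with the Bach2 vector at 2 days of culture and lowest in the B220+ cells, the 3 groups having means of -0.32, 3.03 and -4.03.

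Cxcl10 read -4.07, -6.49 and -8.66 in B220+ cells, with 1 of 3 arrays above background, so both of its folds rest mostly on signal near background. It passed against the control vector (adjusted p = 0.0057) and against the Bach2 vector (adjusted p = 0.027), the latter call being lost in 6 of 17 settings (adjusted p up to 0.101), among them those without Bach2-vector replicate 1, 2 or 3 or without B220+ replicate 2. Ccl9 read 2.85, 2.24 and 3.05 and Ccl6 1.89, 1.24 and 3.52. Ccl9 passed against the control vector (-2.77 ± 0.32, adjusted p = 0.00102) and not against the Bach2 vector (-0.30 ± 0.32, 95% interval -1.03 to 0.42). Ccl6 passed against the control vector (-3.06 ± 0.61, adjusted p = 0.0127), not without control-vector replicate 3 (adjusted p = 0.0526), and it did not pass against the Bach2 vector (-1.25 ± 0.61, adjusted p = 0.244).

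Ccl3 was spread widely over the B220+ arrays, at -1.30, -3.05 and 1.82, and did not pass against the control vector (-3.32 ± 0.97, adjusted p = 0.0573) or the Bach2 vector (-1.14 ± 0.97, adjusted p = 0.487). Without B220+ replicate 3 it passed in both, at -4.65 (adjusted p = 0.000809) and -2.47 (adjusted p = 0.0163). Ccl5 read -2.27, -3.48 and -4.54 and did not pass (-2.05 ± 0.80, adjusted p = 0.124, and -2.81 ± 0.80, adjusted p = 0.0742), and neither did Xcl1, at -6.30, -2.23 and -2.60 (2.81 ± 1.13, adjusted p = 0.135, and -3.28 ± 1.13, adjusted p = 0.125). Ccl4 showed the smallest differences of the 10 in both comparisons, at -0.01 ± 0.29 (95% interval -0.66 to 0.65) and -0.12 ± 0.29 (-0.78 to 0.53).

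Of the 4 receptors tested from the list of the members' receptors, 2 fell in B220+ cells in both comparisons. Ccr4 was at background on the B220+ arrays, at least 8.96-fold below the control vector (adjusted p = 0.000984) and at least 12.7-fold below the Bach2 vector (adjusted p = 0.000951). It entered these tests through the MPP arrays alone and had to differ. Ccr1 fell by 2.02 in both (adjusted p = 0.0268 and 0.0417). Cxcr3 was at 1.17 ± 0.43 and 1.29 ± 0.43 and Ccr3 at -0.08 ± 0.54 and -0.33 ± 0.54, none of which passed. Against the control vector 2 of 18 other ligands fell and 0 rose, Ppbp at least 12.8-fold and Cxcl3 at least 18.0-fold. Both were at background on all B220+ arrays and entered the test through MPP arrays alone, so they had to differ. Of 16 other receptors Ccr7 (20.9-fold) and Ccr6 (14.1-fold) rose while Ccr1l1 (3.63-fold) and Cxcr1 (3.47-fold) fell. Against the Bach2 vector 0 of 18 other ligands passed with limma, Ccl12 (-1.59 ± 0.64, adjusted p = 0.174) and Cxcl14 (-0.65 ± 0.27, adjusted p = 0.186) having the smallest p, while Ccr10 rose 5.81-fold and Ccr1l1 fell 3.09-fold.

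All 3 B220+ arrays lay on slide 1 beside 1 array of each vector, and within that slide Pf4 was at -6.77 against the control and -4.35 against the Bach2 vector, and Ccl17 at -3.93 and -8.57. Ccl24 was lower there in B220+ cells too, where it was at background. The 7 early B-cell markers summed to 3.31 to 4.07 in B220+ cells, 3.03 to 3.74 with the control and 3.49 to 3.73 with the Bach2 vector. Ebf1 was at background in both MPP groups, and Ms4a1, a mature B-cell marker, in all 3. Lymphoid progenitor markers summed to 6.34 to 6.57 in B220+ cells and 3.89 to 5.29 in the MPP groups, neutrophil markers to 7.45 to 7.92 and 6.78 to 7.85. Mature B-cell markers summed to 0.74 to 1.25 in B220+ cells, above the -0.18 to 0.11 of the MPP groups. NK markers summed to 5.76 to 6.07 and those of basophils, eosinophils and mast cells to 4.62 to 7.07, both above the control-vector arrays and overlapping the Bach2-vector arrays. The part of the cell mixture in these differences was not tested, and culture, sort and time cannot be told apart.

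**Figure D3:**
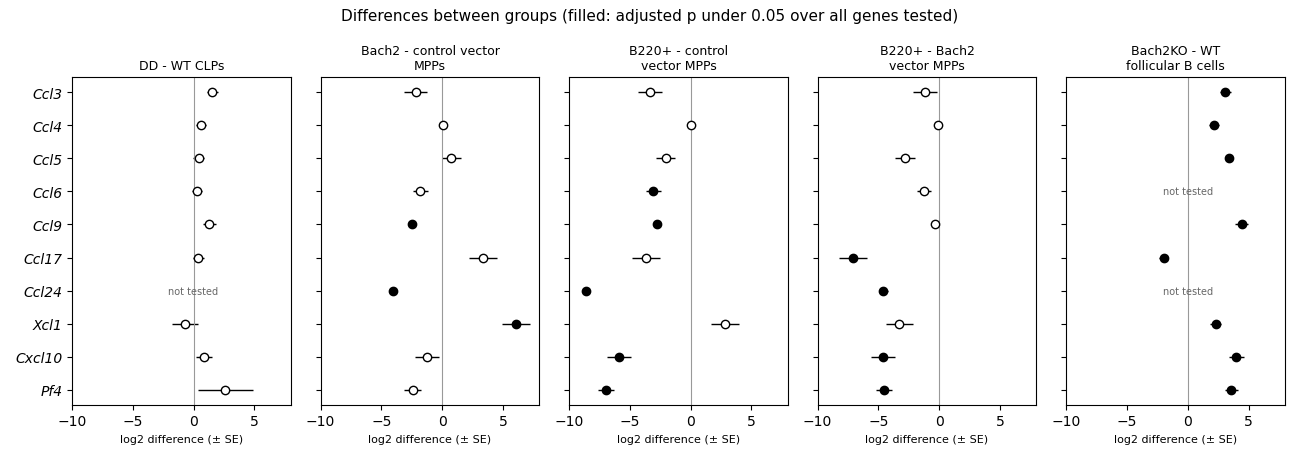
Log2 difference ± SE (horizontal axis) of each of the 10 chemokine ligand genes (vertical axis) in the 5 comparisons, filled where the adjusted p over all genes was under 0.05, with n = 3 arrays per group. No symbol is filled for DD against WT CLPs, and all 8 tested genes are filled for Bach2KO against WT follicular B cells, Ccl17 below 0 and 7 above; the 3 middle panels share arrays. The values of Ccl24 in B220+ cells and of Ccl9, Cxcl10 and Pf4 in follicular B cells are fitted against signal at background, so their sizes are uncertain.

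In CLPs no member passed the test between DD and WT mice. Of 9 members tested with limma 0 were called, and Ccl3 and Ccl9, 2 of them, had an unadjusted p under 0.05, where 0.00607% of 16464 genes, a single gene, were called and 3.76% had such an unadjusted p. The difference was above 0 for 8 of the 9, where 53.7% of all genes lay above 0, and their median was 0.60 beside 0.04. Ccl3 read 4.56, 4.37 and 3.10 in WT and 5.40, 5.82 and 5.36 in DD cells, 1.52 ± 0.45 (95% interval 0.48 to 2.55, adjusted p = 0.999). Ccl9 read 0.33, 0.90 and 1.02 against 1.34, 3.16 and 1.61, 1.29 ± 0.52 (0.10 to 2.48, adjusted p = 0.999). These 2 were the members whose groups did not overlap, as 7.91% of all genes did not, and on the 3 slides, which are also the replicate numbers, the differences were 0.84, 1.45 and 2.26 for Ccl3 and 1.01, 2.27 and 0.58 for Ccl9.

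The other members overlapped between the CLP groups. Ccl4 was at 0.60 ± 0.39 and higher in DD cells on each of the 3 slides, by 0.35, 0.51 and 0.95, and Ccl17 was at 0.40 ± 0.43, or 0.02, 1.09 and 0.09 by slide. With the replicate number as a block 0 members were called. The differences were 0.85 ± 0.66 for Cxcl10, 0.44 ± 0.44 for Ccl5, 0.32 ± 0.41 for Ccl6 and -0.71 ± 1.05 for Xcl1. Each of these 6 had an adjusted p of 0.999. Pf4 varied most, at -6.37, -6.80 and -0.64 in WT and 3.03, -4.06 and -4.93 in DD cells. Its difference of 2.62 ± 2.24 had an interval of -2.51 to 7.76 and went from 9.41 on slide 1 to -4.29 on slide 3. Megakaryocyte and platelet markers summed to -0.67 to 0.16 in WT and -1.13 to 0.84 in DD cells, with Gp6 at background, and their part was not tested. Ccl24 was at background in WT and above it on 2 of 3 DD arrays, at least 1.33-fold higher, and was not tested.

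Of the receptors in CLPs, Ccr3 was at -0.57 ± 0.46, Ccr4 at 0.18 ± 0.63 and Cxcr3 at 0.10 ± 0.45, each with an adjusted p of 0.999. Of 18 other ligands and 17 other receptors 0 passed with limma. The smallest p among them belonged to Ccl2 (1.10 ± 0.45) and Cx3cl1 (-1.68 ± 0.79) and to Ccr9 (-1.02 ± 0.35) and Ccr10 (-1.30 ± 0.54), each with an adjusted p of 0.999. The lymphoid progenitor markers, 5 of 5 above background on every array, summed to 7.67 to 8.19 in WT and 8.06 to 8.13 in DD cells.

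Set side by side, the differences of Bach2KO follicular B cells and of Bach2-vector MPPs, which share no arrays, were 3.09 and -2.18 for Ccl3. For genes at background in WT follicular B cells the first value is a bound, at least 3.73 beside -2.46 for Ccl9, at least 2.72 beside -1.24 for Cxcl10 and at least 2.04 beside -2.42 for Pf4. Those of Xcl1 were 2.28 and 6.09, those of Ccl17 -1.98 and 3.35, those of Ccl4 2.15 and 0.11 and those of Ccl5 3.36 and 0.75. Of these vector differences, the ones of Ccl9 and Xcl1 passed. The cells, the cultures and the RNA amplification differed between the 2 experiments, and the difference between them was not tested.

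Across the 7 groups the levels of a gene came from separately amplified experiments, so their order is a description. Ccl4 was the steadiest, with 6 of the 7 group means between 5.56 in WT follicular B cells and 6.52 in DD CLPs and overlapping arrays from each to the next, and Bach2KO follicular B cells apart above them at 7.71 ± 0.60 (SD). Ccl5 had the same leading group, at 3.50 ± 0.43, apart from DD CLPs at 0.64 ± 0.70, and its lowest mean was in B220+ cells at -3.43 ± 1.13. Ccl3 led in Bach2KO follicular B cells (5.67 ± 0.68) and DD CLPs (5.53 ± 0.25), which overlapped, followed by WT CLPs (4.01 ± 0.79), WT follicular B cells (2.58 ± 0.52) and control-vector MPPs (2.48 ± 0.14). These 3 genes were above background on all 21 arrays.

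Ccl6 and Ccl9 had the same order of groups. Both were highest in control-vector MPPs (5.27 ± 0.64 and 5.48 ± 0.23), apart from Bach2-vector MPPs (3.47 ± 0.71 and 3.02 ± 0.46), which overlapped B220+ cells (2.22 ± 1.17 and 2.71 ± 0.42), then DD CLPs, WT CLPs, Bach2KO and WT follicular B cells. Ccl24, Pf4 and Cxcl10 were also highest in control-vector MPPs, at 1.81 ± 0.30, 3.16 ± 0.29 and -0.52 ± 0.87, with Cxcl10 overlapping the next group, DD CLPs. Ccl17 was highest in Bach2-vector MPPs (3.03 ± 1.45), apart from control-vector MPPs (-0.32 ± 1.98), and Xcl1 in Bach2KO follicular B cells (1.19 ± 0.88), overlapping Bach2-vector MPPs (-0.43 ± 0.84).

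Likeness of pattern was measured as Pearson's r over the 21 arrays, among 16918 genes, and these arrays share their groups, amplification and signal strength. Ccl9 was most like Ccl6 (r = 0.96), followed by Egln3 and Bag3 (0.96 each), and Ccl6 was most like Tuba8, Gas7 and Tmem40 (0.97 each). The probes of such related ligands can share sequence, and cross-hybridisation between them was not tested. Ccl3 went with Ankrd33b (0.93), Tacc2 (0.90) and Sertad2 (0.87), Ccl4 with Abtb2 (0.86), Ly6a (0.84) and Prdm1 (0.82), and Ccl5 with Npas4 (0.91), Gimap4 (0.90) and Sema7a (0.89). The nearest patterns were Adra2a (0.90), C3ar1 (0.89) and Plet1 (0.89) for Ccl17, and F7 (0.94), Catsperz (0.93) and Csta2 (0.92) for Ccl24. The nearest patterns to Xcl1 were Pdgfa (0.82), Pmepa1 (0.82) and Lag3 (0.80), those to Cxcl10 Trim6 (0.89), Rbm47 (0.88) and Pon3 (0.85), and those to Pf4 Morrbid (0.84), Tmem39a (0.82) and Gsr (0.82). Among the members themselves the next pairs after Ccl6 and Ccl9 were Ccl24 with Pf4 (0.74), Ccl4 with Ccl5 (0.73) and Ccl3 with Ccl5 (0.72), and the lowest was Ccl6 with Xcl1 (-0.56).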

How the data were processed

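RNA of 21 samples was measured on 1-colour Agilent arrays of 62976 spots, 3671 of them controls, whose headers name build mm9. The deposited values were background-subtracted spot intensities made by Feature Extraction, version 10.7.3.1 per the file headers and 9.1 per the submitters' processing notes. Per the labels' protocols, RNA of CLPs and MPPs was amplified in 2 rounds and that of follicular B cells linearly, so levels in different experiments are side-by-side descriptions. Intensities were here turned into log2 values, less the 75th percentile of the array's gene spots. Spots with outlier marks were left out. Through RefSeq accessions 26413 of 55681 probes were named. A gene was read by its brightest probe and tested if at least 3 arrays of its experiment showed it well above background and each group had 2 or more values. The comparisons were fitted within each experiment by lmFit and eBayes of limma 3.58.1 (R 4.3.3, data.table, version 1.17.8), the 9 MPP-derived arrays sharing 1 spread, with Benjamini-Hochberg adjustment over all genes. Python 3.11.15, pandas 2.3.3, numpy 2.4.6 and matplotlib 3.10.9 were used for tables and figures. The fit was tested on simulated data with the same spread for every gene, independent arrays and no signal floor, unlike these arrays.

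A fold against a group with no array above background is a lower bound, taken against the higher of the dim probe's own signal and the lowest signal well above background on each array. It is a bound under the main processing only, and some alternative settings gave smaller differences. No gene spot was saturated (0), 0 pairs of arrays were identical, and the deposited value table held the same intensities. The number of arrays limits the precision. To check whether replicate numbers pair the arrays, deviations from group means were correlated between same-numbered arrays. CLPs gave 0.43, 0.39 and 0.22, the vectors 0.65, 0.41 and 0.30 and follicular B cells 0.86, 0.72 and 0.54, and these arrays were treated as paired in the blocked fit. The highest correlation between differently numbered arrays was 0.07, 0.31 and 0.50 in turn, so replicate 3 of the vectors did not stand out. The 10 members, the lists of other chemokine ligands, receptors and cell markers, and the tests were chosen with earlier results of these data known. The text names all members and the listed receptors of the members, apart from items that are not reported here, and of the other ligands and receptors those that passed or, where none did, the 2 with the smallest p; likeness was ranked by Pearson's r. Alternatives changed the normalization, centring, background correction, filter, probe choice, variance model, arrays in the fit and blocks. For normexp (offset 50) the median spot signal stood in for the mean.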

Additional observations from a re-analysis of the deposited data

How the results depend on the processing

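No difference of a called member changed sign in any alternative, and 304 of their alternatives kept the call while 38 lost it. These counts include the deposited value table, which held the same intensities, and the mean over all probes of a gene. Each member had only 1 probe, so neither setting could change a member's difference. Of the alternatives of uncalled members 446 left them uncalled and 17 made them pass. Those 17 were of Ccl3, Ccl5, Ccl17, Xcl1 and Pf4 in MPP-derived cells. The remaining 1, quantile normalization, was counted apart and gave no call. It moved the difference of Ccl4 in B220+ cells against the control vector from -0.01 to 0.37. Shifts among the 446 were not all small. In CLPs the difference of Pf4 varied widely between settings, and that of Xcl1 changed sign. Calls held in every alternative that tested them for Ccl3, Ccl5 and Ccl9 in follicular B cells, Ccl9 and Ccl24 between vectors, Ccl24, Pf4, Ccl9 and Cxcl10 in B220+ cells against the control vector, and Ccl17, Ccl24 and Pf4 against the Bach2 vector. In follicular B cells, where 8 members were called, quantile normalization called 4, array median centring 5, normexp background correction 3 and the filter on all arrays 4 of the 4 it tested, and leaving out 1 array called 5 to 8. Between vectors, where 3 were called, the filter on all arrays called 1, a fit of only the 2 groups 5 and leaving out 1 array 2 to 3. Against the Bach2 vector, where 4 were called in B220+ cells, the filter on all arrays called 2 and leaving out 1 array 3 to 5; against the control vector that range was 4 to 7, beside 5. In CLPs 0 were called throughout.

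With the replicate block 0 members were called in CLPs, 3 between vectors, 8 in follicular B cells, 7 in B220+ cells against the control vector and 4 against the Bach2 vector; in the last 2 comparisons the numbers share only a label, with correlations of deviations of 0.12, -0.04 and -0.06 and of 0.08, 0.12 and 0.10. The block called 2588 and 1388 of all genes there, against 2056 and 1048 without it, 325 against 305 between vectors and 0 against 1 in CLPs. Over all genes of the follicular B cells 356 were called, 144 with median centring, 123 with normexp, 1196 with slide as a block, 2980 with the replicate block and 159 to 442 with 1 array left out. Leaving out 1 array called 106 to 199 genes between vectors, 1034 to 2637 and 443 to 1707 in B220+ cells against the control and the Bach2 vector, and 0 to 16 in CLPs, and the fit of only the 2 groups called 670 against the Bach2 vector. Rises were 38.4% of calls against the control vector, 50.2% with quantile and 59.9% with median centring; 32.5%, 43.7% and 54.4% against the Bach2 vector; and 81.2% in follicular B cells, 42.0% with the replicate block and 57.1% with the slide block. Median centring moved the median of all genes from -0.16 to -0.39 in follicular B cells, from -0.29 to 0.02 against the control vector and from -0.25 to 0.06 against the Bach2 vector. The cause was not tested. Low signal over background limits the follicular B-cell values.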
